A study of Mus musculus with 6 samples.

Results

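Hepatocytes hold and release the body's glucose, and the genes of that work were followed through gestation and lactation in 32 genes of glucose, fructose and glycogen metabolism. They are the listed rows of a read count table of 40824 genes: 6 of gluconeogenesis, 15 of glucose uptake, glycolysis and pyruvate use, 2 of fructose use, 7 of glycogen and 2 of the pentose phosphate pathway. All 32 were found, 1 of them (Tkfc) under its older symbol, and 31 had enough reads to be tested; the remaining gene, G6pdx, held no read. The nuclei came from livers of female, wild-type C57BL/6J mice mated at about 8 weeks of age, with no other genotype or treatment, at G0 and G14.5, named by the day of gestation, and at P7L (day 7 after birth, lactating). Each stage has 1 library of nuclei taken from liver tissue and 1 from perfused liver, and RNA was read by Smart-seq3xpress, a plate method that covers the whole transcript. The labels name no animal, time of day or feeding state, so every p-value measures only the spread between these 6 libraries.

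In liver, glucose enters through the transporter Slc2a2 and is phosphorylated, after which it can be broken down to pyruvate, stored as glycogen or sent into the pentose phosphate pathway. Gluconeogenesis runs in the other direction, from lactate and amino acids through Pcx, Pck1, Fbp1 and G6pc to free glucose, and it is known as a periportal activity of the liver lobule, whereas glycolysis is known to lean to the pericentral side. Fructose bypasses the main control step of glycolysis, because Khk phosphorylates it directly.

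The libraries held 184 to 308 nuclei, 1567 in all, with 226030591 to 379767336 reads per library and a median of 731494 to 1191576 reads per nucleus. The 32 genes took 0.85% and 0.81% of the reads at G0, 0.55% and 0.68% in G14.5 and 0.89% and 1.03% in P7L (liver tissue first, as in every list below). The 10 hepatocyte markers took 1.6% to 1.86% of reads in each library, and no marker list of another cell type took more than 0.00494%. Of the defining markers, Lrat of stellate cells, Ms4a1 of B cells, Retnlg of neutrophils and Alas2 of erythroid cells were at 0 in all 6 libraries. Each list had at least 1 marker with reads in each library.

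Levels are given as normalised read counts (CPM, counts scaled to the library total after TMM scaling between libraries). Because genes differ in length, levels of different genes were compared only on the authors' deposited TPM-like values, which divide by gene length. On that scale Ugp2, which makes the UDP-glucose used for glycogen, was highest of the 32 with a mean of 122 over the 6 libraries. Fbp1, the fructose bisphosphatase of gluconeogenesis, followed with 113, and Gbe1, the glycogen branching enzyme, with 104. Gckr, a regulatory protein of glucose phosphorylation, had 95.1, and Pck1, which makes phosphoenolpyruvate for gluconeogenesis, had 73.4. The lowest members with reads were glycolytic: Pfkfb3 (0.487), Pfkl (0.54) and Pgam1 (0.547), an activator of phosphofructokinase, the liver phosphofructokinase subunit and phosphoglycerate mutase. The first 5 of this order cannot all be separated from their neighbours: Fbp1 ran from 82 to 155 and Gbe1 from 74.4 to 140 over the libraries, so their ranges overlap.

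**Figure D1:**
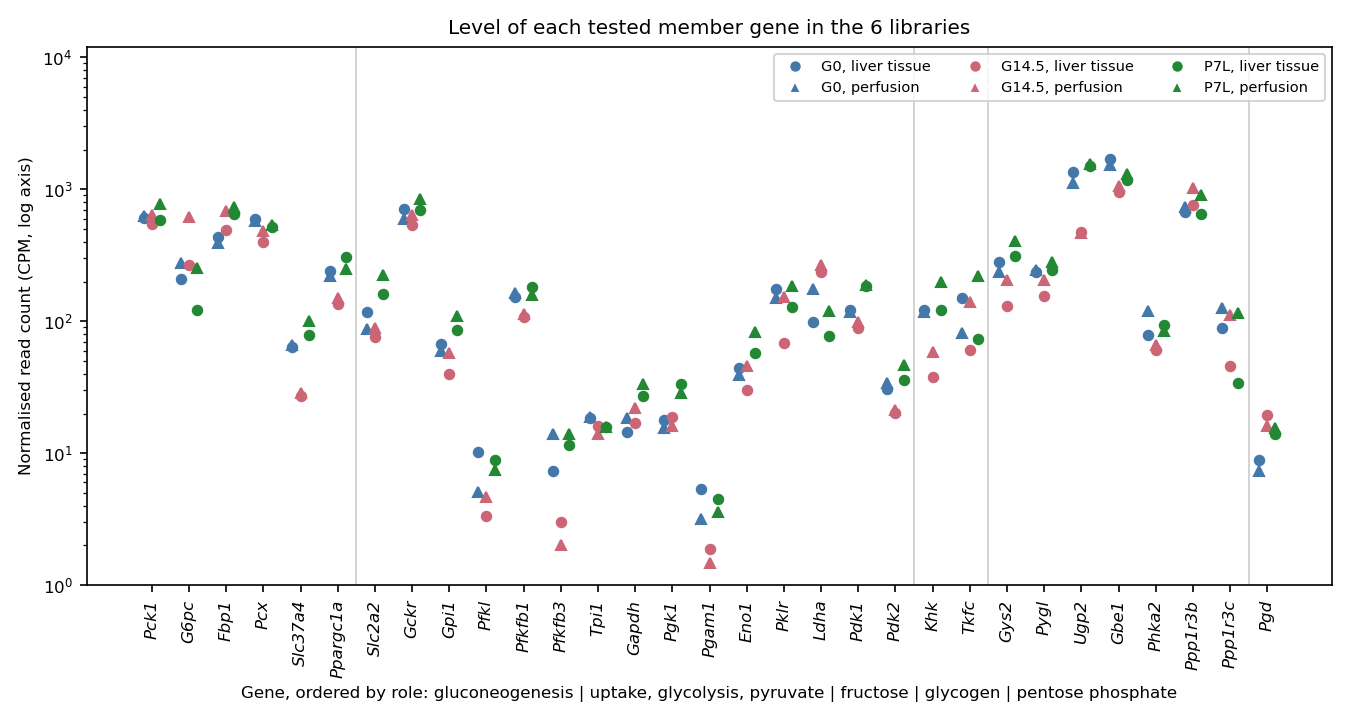
Normalised read count (CPM, log axis) of each of the 31 tested genes in the 6 libraries, ordered by role; circles are liver tissue, triangles perfusion, colours the stages. The Ugp2 points at G14.5 (473.2 and 467.7) lie below all 4 others (1117 to 1565), and the Ldha points at G14.5 lie above all 4 others.

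Between G0 and G14.5 the glycogen and fructose genes Ugp2, Gbe1 and Khk fell, as did the glucose-6-phosphate carrier Slc37a4, the coactivator Ppargc1a and the glycolytic activator Pfkfb3, while lactate dehydrogenase Ldha rose. They were 7 of the 31 tested members (edgeR quasi-likelihood F test, Benjamini-Hochberg adjusted p under 0.05 over all genes, two-sided), 1 higher and 6 lower. Over all 15015 tested genes 11.9% were called, 6.93% higher (1040 genes) and 5.01% lower (753). Scaling by library size alone turned that split to 891 higher and 1101 lower. The median log2 change of the members was -0.44, against -0.01 over all genes. In direction 24 of the 31 were lower, against 7600 of all 15015 genes.

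Between G14.5 and P7L 13 of the 31 were called, 11 higher (Ugp2, Slc37a4, Khk, Pdk1, Ppargc1a, Slc2a2, Gys2, Pfkfb3, Gpi1, Pdk2 and Pfkfb1) and 2 lower (Ldha and G6pc). Over all genes 9.26% were called, 4.2% higher (630 genes) and 5.06% lower (760), a split of 1048 and 551 with library size alone. The median member changed by 0.63 on the log2 scale, against 0 over all genes. Both comparisons use the same 2 G14.5 libraries, so a low or high level there enters both, and their values are set side by side without a test of their likeness.

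Between G0 and P7L no member was called by edgeR, while 14 of the 31 had an unadjusted p under 0.05, and DESeq2 called 6 and limma-voom 0. The background was 2.92% of all genes called, 1.56% higher (234 genes) and 1.36% lower (204), a split of 303 and 171 with library size alone. The smallest adjusted p was that of Fbp1, 0.0591 (0.73 ± 0.16 (SE) on the log2 scale). A p over the threshold does not show that G0 and P7L levels were alike: the differences of single genes ranged widely, and their SEs are given below where they matter.

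**Figure D2:**
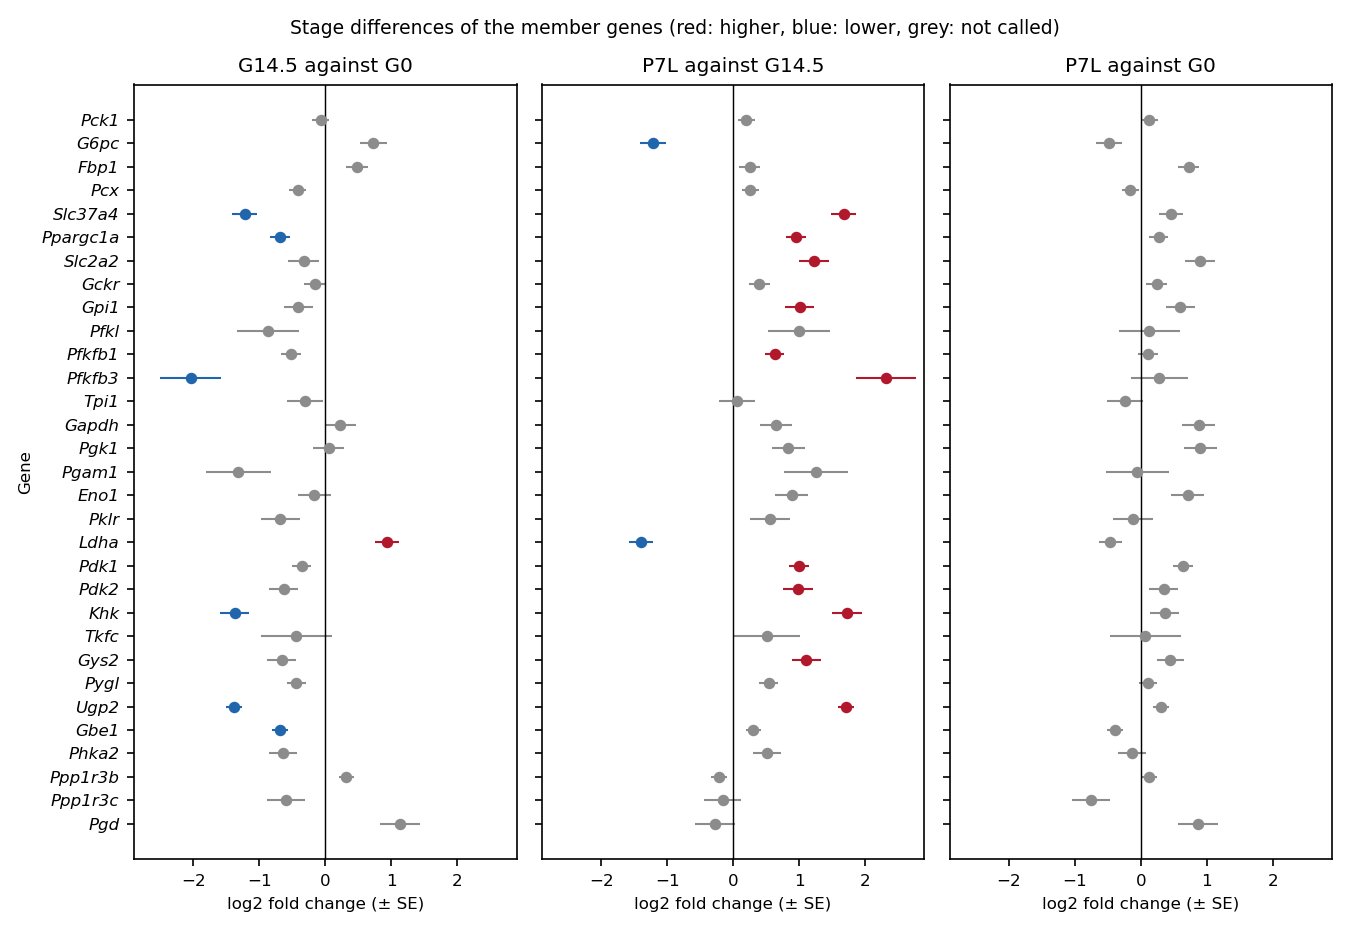
Fitted log2 fold change with its standard error for each of the 31 tested genes in the 3 stage comparisons, from all 6 libraries; red marks called higher, blue called lower, grey not called. Slc37a4, Khk and Ugp2 lie between -1.22 and -1.39 at G14.5 against G0 and between 1.68 and 1.73 in P7L against G14.5.

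Among the glycogen genes, Ugp2 (chr11:21321138-21371201, minus strand, GRCm38) held 1364 and 1117 CPM in G0, 473.2 and 467.7 in G14.5, and 1504 and 1565 in P7L. Both G14.5 libraries were thus below all others, with no overlap. Ugp2 was 2.63-fold lower at G14.5 than at G0 (log2 -1.39 ± 0.12 SE, edgeR adjusted p = 0.00114) and 3.26-fold higher at P7L than at G14.5 (1.71 ± 0.12, adjusted p = 0.000533). It was the member with the smallest p in both comparisons.

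Gbe1 (chr16:70313949-70569716, plus strand), which adds the branches to glycogen, held 1711 and 1531 CPM in G0, 951.6 and 1057 in G14.5 and 1169 and 1318 in P7L. It fell by 0.69 ± 0.12 on the log2 scale at G14.5 against G0 (edgeR adjusted p = 0.0143). Unlike for Ugp2, the P7L values stayed below both G0 values, and the difference from G14.5 (0.31 ± 0.12, adjusted p = 0.179) did not pass.

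Gys2, the liver glycogen synthase, held 282.2 and 235.3 CPM in G0, 130.5 and 205.6 in G14.5 and 312.6 and 409.3 in P7L. The order of the stages was the same in both preparations, with the 2 G14.5 libraries lowest. Only its difference between P7L and G14.5 passed (1.11 ± 0.22, edgeR adjusted p = 0.0213), and at G14.5 against G0 it was -0.66 ± 0.22 (adjusted p = 0.0905).

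On the breakdown side of glycogen no member was called between stages. Pygl, liver glycogen phosphorylase, held 238.1 and 246.3 CPM in G0, 155.1 and 206.5 in G14.5 and 243.7 and 280.8 in P7L, with log2 differences of -0.44 ± 0.14 and 0.54 ± 0.14 that did not pass (edgeR adjusted p = 0.089 and 0.058). Phka2, the liver regulatory subunit of phosphorylase kinase, also missed the threshold in each stage comparison, with -0.64 ± 0.21 at G14.5 against G0.

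The 2 glycogen-targeting subunits of protein phosphatase 1 did not follow Ugp2. Ppp1r3b held 675.6 and 739 CPM in G0, 765.5 and 1027 in G14.5 and 652.7 and 902 in P7L, and was not called in any comparison. Ppp1r3c held 89.1 and 125.1, 46 and 110.9, and 34.3 and 115.2. Its perfusion libraries were above the liver tissue library at each stage, and the stages overlapped.

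In fructose use, ketohexokinase Khk (chr5:30921431-30931248, plus strand), which commits fructose to the liver, held 122.7 and 117 CPM in G0, 37.6 and 58.9 in G14.5 and 121.1 and 200 in P7L. The G14.5 libraries were again below the other 4. Khk was 2.58-fold lower at G14.5 than at G0 (log2 -1.37 ± 0.22, edgeR adjusted p = 0.0115) and 3.32-fold higher at P7L than at G14.5 (1.73 ± 0.23, adjusted p = 0.00483).

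Tkfc, the triokinase of fructose use, had no common direction. It held 151.2 and 81.4 CPM in G0, 60.4 and 140.8 in G14.5 and 73.5 and 220.8 in P7L. In liver tissue it was highest at G0, and in perfusion lowest at G0, and no stage difference passed. Tkfc overlaps the coding genes Cyb561a3 and Ddb1 on the other strand, and whether reads were counted by strand is not given in the sources used here.

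In gluconeogenesis, Slc37a4 (chr9:44396852-44402968, plus strand), which carries glucose-6-phosphate into the endoplasmic reticulum, held 63.5 and 66.4 CPM in G0, 27.2 and 28.5 in G14.5 and 79.2 and 100.4 in P7L. No library of G14.5 overlapped those of another stage. It was 2.34-fold lower at G14.5 than at G0 (log2 -1.22 ± 0.19, edgeR adjusted p = 0.00845) and 3.21-fold higher at P7L than at G14.5 (1.68 ± 0.19, adjusted p = 0.00261).

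Its partner enzyme G6pc (chr11:101367561-101377903, plus strand), the catalytic subunit of glucose-6-phosphatase, was highest at G14.5 within each preparation. It held 210.4 and 278 CPM in G0, 265 and 617.3 in G14.5 and 121.8 and 254.1 in P7L. It fell between G14.5 and P7L (log2 -1.21 ± 0.20, edgeR adjusted p = 0.013), and its difference at G14.5 against G0 missed the threshold (0.73 ± 0.20, adjusted p = 0.0605). The stages overlap: perfusion values exceeded liver tissue values at each stage, and the G14.5 perfusion library was the highest of the 6.

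The coactivator Ppargc1a, which raises transcription of gluconeogenic and mitochondrial genes, held 239.5 and 221.4 CPM in G0, 134.5 and 150.4 in G14.5 and 307.9 and 247.4 in P7L. It was lowest in both G14.5 libraries, by -0.69 ± 0.15 against G0 (edgeR adjusted p = 0.0306), and it rose by 0.96 ± 0.15 from G14.5 to P7L (adjusted p = 0.0112).

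The enzymes on the path from pyruvate to fructose-6-phosphate were not called in any stage comparison. Pck1 held 606.1 and 626.4 CPM in G0, 542.2 and 637.5 in G14.5 and 583.2 and 777 in P7L, a log2 difference of -0.07 ± 0.13 at G14.5 against G0. Pcx, pyruvate carboxylase, was at 599.7 and 575.7, 398 and 483.5, and 521.1 and 534.2 CPM. Fbp1 was at 432.3 and 394.4, 489.1 and 682.1, and 652.2 and 730.9 CPM, so that both G0 values were below the other 4. Of the 6 gluconeogenic members, Slc37a4 and Ppargc1a were therefore the called ones at G14.5 against G0.

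In glycolysis and pyruvate use, Ldha (chr7:46841475-46855627, plus strand), which interconverts pyruvate and lactate, held 98.2 and 176.8 CPM in G0, 235.3 and 269 in G14.5 and 77.1 and 120.4 in P7L. The G14.5 libraries were above all 4 others. It was 1.92-fold higher at G14.5 than at G0 (log2 0.94 ± 0.18, edgeR adjusted p = 0.0201) and 2.63-fold lower at P7L than at G14.5 (-1.40 ± 0.18, adjusted p = 0.00514). Transcripts of 4 other genes or pseudogenes match it at 95% identity or more over at least 200 bases, so its counts are uncertain to that extent. The rise against G0 lost its call without the G14.5 liver tissue library (adjusted p = 0.139), without the G0 liver tissue library (0.0525) and without the preparation term (0.0906). It also lost it with limma on the authors' values (0.0815 and 0.0533 with pseudocounts of 1 and 0.1), and over all alternatives the adjusted p ran from 0.000469 to 0.139.

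Of the regulators of phosphofructokinase, Pfkfb3 was the rarer, with 7.39 and 14 CPM in G0, 2.99 and 2.03 in G14.5 and 11.5 and 14.1 in P7L. The G14.5 values were the lowest. It fell by 2.04 ± 0.46 on the log2 scale at G14.5 against G0 (edgeR adjusted p = 0.0313) and rose by 2.32 ± 0.46 from G14.5 to P7L (adjusted p = 0.0223). On the log2 scale of the authors' values, where Pfkfb3 ran from 0.0727 to 0.829 before the log, the difference against G0 was -0.48 with a pseudocount of 1 and -1.59 with 0.1, and neither passed (limma adjusted p = 0.0664 and 0.0588). Few nuclei had reads of it: 7.1% and 6.7% of the nuclei thinned to 250000 reads at G14.5, and 15.2% and 14.9% in G0. Pfkfb1, the liver form of the same bifunctional enzyme, held 107.4 and 113 CPM in G14.5, below the 153.4 to 181.3 of the other libraries, and rose by 0.63 ± 0.15 from G14.5 to P7L (adjusted p = 0.0418).

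Glucose entry and its first branch point rose from G14.5 to P7L. The transporter Slc2a2 held 117.9 and 87.9 CPM in G0, 75.4 and 89.4 in G14.5 and 161.3 and 226 in P7L (1.23 ± 0.23 on the log2 scale against G14.5, edgeR adjusted p = 0.0187). Both P7L values were above all others. Gpi1, glucose-6-phosphate isomerase, held 67.4 and 59.6, 40.2 and 57.6, and 85.4 and 110.4 CPM (1.01 ± 0.22, adjusted p = 0.0309), again with P7L highest. A transcript of Gm1840 matches Gpi1 at the identity given for Ldha. Gckr was not called, at 713.3 and 592.5 CPM in G0, 539.4 and 636.8 in G14.5 and 699.3 and 851.2 in P7L.

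Of the pyruvate dehydrogenase kinases, which switch off the entry of pyruvate into the citric acid cycle, the members Pdk1 and Pdk2 rose from G14.5 to P7L, while Pdk4, which is no member, fell. Pdk1 held 122.6 and 117.5 CPM in G0, 88.5 and 99.2 in G14.5 and 185.7 and 188.9 in P7L, without overlap between any stages (1.00 ± 0.15 against G14.5, edgeR adjusted p = 0.00739). Pdk2 held 30.6 and 33.9, 20.3 and 21.3, and 36 and 46.8 CPM (0.98 ± 0.23, adjusted p = 0.0388). Pdk4 held 7.05 and 3.44, 13.2 and 7.71, and 1.37 and 2.15 CPM, with both P7L values lowest (-2.47 ± 0.55, adjusted p = 0.0346), and Pdk3 was not called (0.18 ± 0.65).

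The other 8 glycolytic members, Pfkl, Tpi1, Gapdh, Pgk1, Pgam1, Eno1, Pklr and Gckr, were not called in any stage comparison. Gapdh and Pgk1, which carry out the middle steps of glycolysis, had P7L values above every other library (27.1 and 33.4 CPM for Gapdh, 33.7 and 28.7 for Pgk1), with log2 differences from G0 of 0.88 ± 0.25 and 0.90 ± 0.25 (edgeR adjusted p = 0.103 and 0.0979). Transcripts of 77 other genes or pseudogenes match Gapdh and 4 match Pgk1 at the identity given for Ldha. Pklr, the liver pyruvate kinase, had 68.1 CPM in G14.5 liver tissue and 128.6 to 186.5 in the other 5 libraries.

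In the pentose phosphate pathway, Pgd, which makes NADPH in its later oxidative step, held 8.96 and 7.31 CPM in G0, 19.5 and 16.2 in G14.5 and 14 and 15.5 in P7L. Both G0 values were below the other 4. The difference at G14.5 against G0 was 1.13 ± 0.30 on the log2 scale and missed the threshold (edgeR adjusted p = 0.0543). G6pdx, the first enzyme of the pathway, had 0 reads in every library, which allows at most 0.0079 to 0.0133 CPM at 3 reads per library and covers counting error only. G6pdx overlaps the coding gene Ikbkg on the other strand, and a count of 0 in this table is given as listed, without a reading on its expression.

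The fall and rise were seen across nuclei. After each nucleus was thinned to 250000 reads, Slc37a4 had a read in 47.3% of nuclei in both G14.5 libraries (95% exact binomial intervals 40.6% to 54.1% and 41.6% to 53.2%), in 81.9% and 70.2% in G0 and in 88.8% and 93.9% in P7L. Khk had a read in 67% and 76% of nuclei at G14.5, 94.1% and 92.3% in G0 and 97.6% and 99.3% in P7L. Reads lack molecular identifiers and nuclei of 1 library share their source, so these intervals cover counting error only. For Ugp2, which nearly every nucleus held, the median nucleus had 930 and 606 CPM in G0, 216 and 241 in G14.5 and 1360 and 1450 in P7L. The 10% of nuclei with the lowest levels had at most 12.6 and 32.6 CPM in G14.5, against 143 to 404 in the other libraries. Ldha moved the other way, with a median nucleus at 108 and 103 CPM in G14.5 and at 16.3 to 48 elsewhere.

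**Figure D3:**
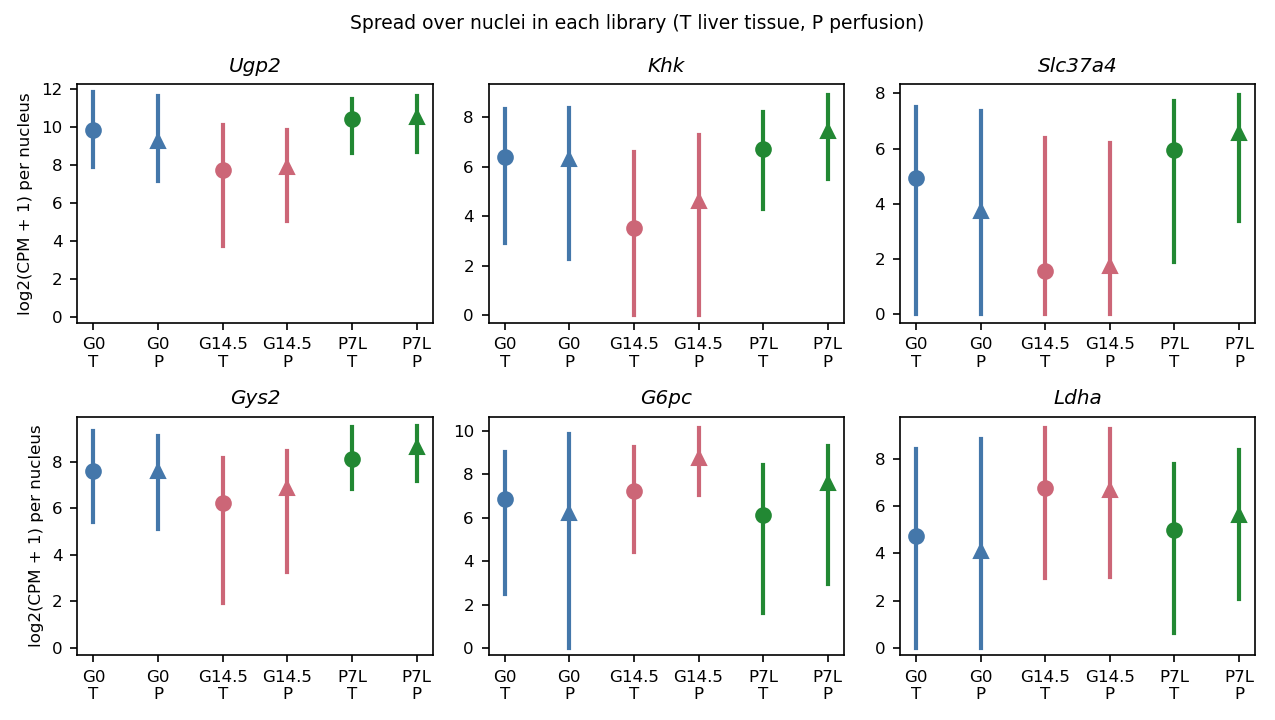
Spread over single nuclei of 6 genes in each library, as log2(CPM + 1): the symbol is the median nucleus and the line runs from the 10th to the 90th percentile. Median nuclei of Ugp2, Khk, Slc37a4 and Gys2 are lowest in the 2 G14.5 libraries, while those of Ldha are highest there.

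Upstream sequence is shown for the member that fell most clearly (Ugp2), another glycogen gene that fell (Gbe1), the called member that rose at G14.5 (Ldha), a kinase that rose from G14.5 to P7L (Pdk2) and a gene not called between stages (Pck1). Each is the stretch before a RefSeq transcription start (GRCm38.p6), without bases annotated as untranslated region in GENCODE. Capitals mark matches on either strand to an E-box (CACGTG), to the cAMP response element (TGACGTCA) or to the short form of that element (TGACG), which the full element contains in overlap. The start nearest to that of the GENCODE principal transcript was used: it lies 152 bases from it for Ugp2, 138 for Gbe1, 35 for Ldha, 17 for Pdk2 and 25 for Pck1.
Ugp2: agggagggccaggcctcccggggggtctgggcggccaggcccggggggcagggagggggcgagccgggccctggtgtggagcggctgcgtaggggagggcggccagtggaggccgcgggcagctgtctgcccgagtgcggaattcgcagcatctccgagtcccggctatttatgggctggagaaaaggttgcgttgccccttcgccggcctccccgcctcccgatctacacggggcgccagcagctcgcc
Gbe1: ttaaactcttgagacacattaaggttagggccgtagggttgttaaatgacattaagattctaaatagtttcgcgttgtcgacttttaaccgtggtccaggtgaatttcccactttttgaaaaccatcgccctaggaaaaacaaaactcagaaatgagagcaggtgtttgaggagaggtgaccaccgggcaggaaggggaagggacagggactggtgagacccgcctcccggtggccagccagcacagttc
Ldha: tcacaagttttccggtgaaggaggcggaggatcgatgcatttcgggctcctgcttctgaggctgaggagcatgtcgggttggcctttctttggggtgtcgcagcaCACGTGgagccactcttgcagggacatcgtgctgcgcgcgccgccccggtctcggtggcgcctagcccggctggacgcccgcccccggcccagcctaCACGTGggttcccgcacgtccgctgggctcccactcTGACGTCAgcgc
Pdk2: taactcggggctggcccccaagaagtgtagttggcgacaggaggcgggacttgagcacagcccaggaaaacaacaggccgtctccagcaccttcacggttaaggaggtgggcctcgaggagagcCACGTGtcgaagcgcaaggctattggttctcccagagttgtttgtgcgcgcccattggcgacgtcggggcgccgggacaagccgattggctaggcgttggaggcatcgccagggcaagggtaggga
Pck1: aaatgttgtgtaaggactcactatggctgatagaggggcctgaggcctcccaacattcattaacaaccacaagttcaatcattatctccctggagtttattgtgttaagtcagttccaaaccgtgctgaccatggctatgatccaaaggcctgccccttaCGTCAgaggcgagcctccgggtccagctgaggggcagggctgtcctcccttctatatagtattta

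Ldha at chr7:46845554-46845803 (plus strand) held 2 E-boxes, starting 145 and 48 bases before the start, and the full cAMP response element 12 bases before it. Pdk2 at chr11:95041372-95041621 (minus strand) held 1 E-box at 126 bases, and Pck1 at chr2:173152823-173153047 (plus strand) held 1 short form at 90 bases. Ugp2 at chr11:21370630-21370879 (minus strand) and Gbe1 at chr16:70313699-70313948 (plus strand) held none of these letters. Other members that fell at G14.5 did hold them in the full 250 bases: Khk and Pfkfb3 an E-box and the short form, Slc37a4 and Ppargc1a the short form. The matches of Khk and Slc37a4 and the short form of Pfkfb3 lay in or after annotated untranslated region, the part left out of printed stretches. For Ppargc1a the start used lay 13803 bases from that of the principal transcript. Pdk1, which rose from G14.5 to P7L like Pdk2, held none. Ldha was the only member called higher at G14.5 against G0, so the matches cannot be compared between members that fell and members that rose there. Of 30 members with a RefSeq sequence 6 (20%) had an E-box in the 250 bases, 7 (23.3%) the short form and 1 (3.33%), Ldha, the full element. Among all 32851 RefSeq windows of that length 6.02% and 17.8% did, and 1.55% held the full element. The members are few and no test was made. A match describes letters only, and a window without a match says nothing about a factor.

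Nuclei were also ordered within each library by a zone score, the mean of 14 pericentral minus the mean of 14 periportal landmark genes, none of which is a member. The pericentral and the periportal tercile of the nuclei of each library, the outer ones of 3 equal parts, were summed and compared with the library as a block, in 14938 genes. These terciles are ranges of a score, not cell types. In the periportal tercile 10 of 31 members were called higher: 4 of 6 of gluconeogenesis (Fbp1, Pck1, Ppargc1a and G6pc), 2 of 2 of fructose use (Khk and Tkfc), 2 of 7 of glycogen (Pygl and Gys2) and 2 of 15 of uptake, glycolysis and pyruvate use (Gpi1 and Pklr). In the pericentral tercile 1 was called higher, Pfkfb1. Over all genes 3.9% were called, 1.87% periportal and 2.02% pericentral. The median member differed by -0.46 (log2, pericentral minus periportal), against 0.01 over all genes.

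Of gluconeogenesis, 4 of 6 members were called. Pck1 held 757.1 and 552 CPM in the periportal and the pericentral tercile of G0 liver tissue, 918.4 and 388.9 in G0 perfusion, 774.4 and 313 and then 754.5 and 478.4 in G14.5, and 832 and 363.1 and then 1053 and 484.3 in P7L. The periportal tercile was higher in each library (log2 -1 ± 0.13, edgeR adjusted p = 0.0014). Fbp1 differed by the same amount (-1 ± 0.12, adjusted p = 0.000684), G6pc by -0.91 ± 0.17 (adjusted p = 0.0118) and Ppargc1a by -0.70 ± 0.10 (adjusted p = 0.00322). Pcx, the first enzyme of the route, differed by -0.07 ± 0.09 and was not called.

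Both fructose members were called periportal, Khk by -1.18 ± 0.13 (edgeR adjusted p = 0.000562) and Tkfc by -0.93 ± 0.20 (adjusted p = 0.0282). Khk held 173 against 78.6 CPM in G0 liver tissue and 275.1 against 108.7 in P7L perfusion, and was higher in the periportal tercile in 6 of 6 libraries. Tkfc, whose stage values had no common direction, was likewise higher in the periportal tercile in all 6. It lost the call without the library block (-0.79) and when single libraries of each stage were left out, and kept its sign. Of glycogen, Pygl (-0.96 ± 0.16, adjusted p = 0.00751) and Gys2 (-0.91 ± 0.16, adjusted p = 0.0101) were called periportal. Phka2 went the other way in direction, higher in the pericentral tercile in 6 of 6 libraries, and was not called (0.46 ± 0.16, adjusted p = 0.185). Ppp1r3c differed by 0.10 ± 0.23. Ugp2, the member with the clearest stage difference, differed by -0.31 ± 0.16 between terciles and was not called.

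Gpi1 held 106.9 against 25.2 CPM in G0 liver tissue and 147.4 against 64.1 in P7L perfusion, a log2 difference of -1.62 ± 0.18 (edgeR adjusted p = 0.000483). Pklr, a glycolytic enzyme, was also higher in the periportal tercile (-1.68 ± 0.36, edgeR adjusted p = 0.0274), with library values from -3.14 to -0.37. Its call was lost when either library of G0 or of G14.5 was left out. Pfkfb1 was higher in the pericentral tercile in each library, by 0.39 to 1.43 (fitted 0.88 ± 0.16, adjusted p = 0.00978), with 93.4 against 252.6 CPM in G0 liver tissue. Pfkfb1 overlaps the coding gene Apex2 on the other strand and Pklr overlaps Hcn3, with the limit on strand given for Tkfc. Over all 31 members, 12 were lower and 2 higher in the pericentral tercile in all 6 libraries. The same count over all genes was not made. By fitted direction 25 of the 31 were lower in the pericentral tercile, against 7388 of all 14938 genes. Whether the zone difference itself changed with stage was tested in edgeR for each gene separately, with a single test across the stages. Of the 31 members none passed, and the background was 0% of all genes. The unadjusted edgeR p was under 0.05 for 3 members (Gys2 0.00832, Pklr 0.00979 and Ldha 0.047), and limma-voom called 0.

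**Figure D4:**
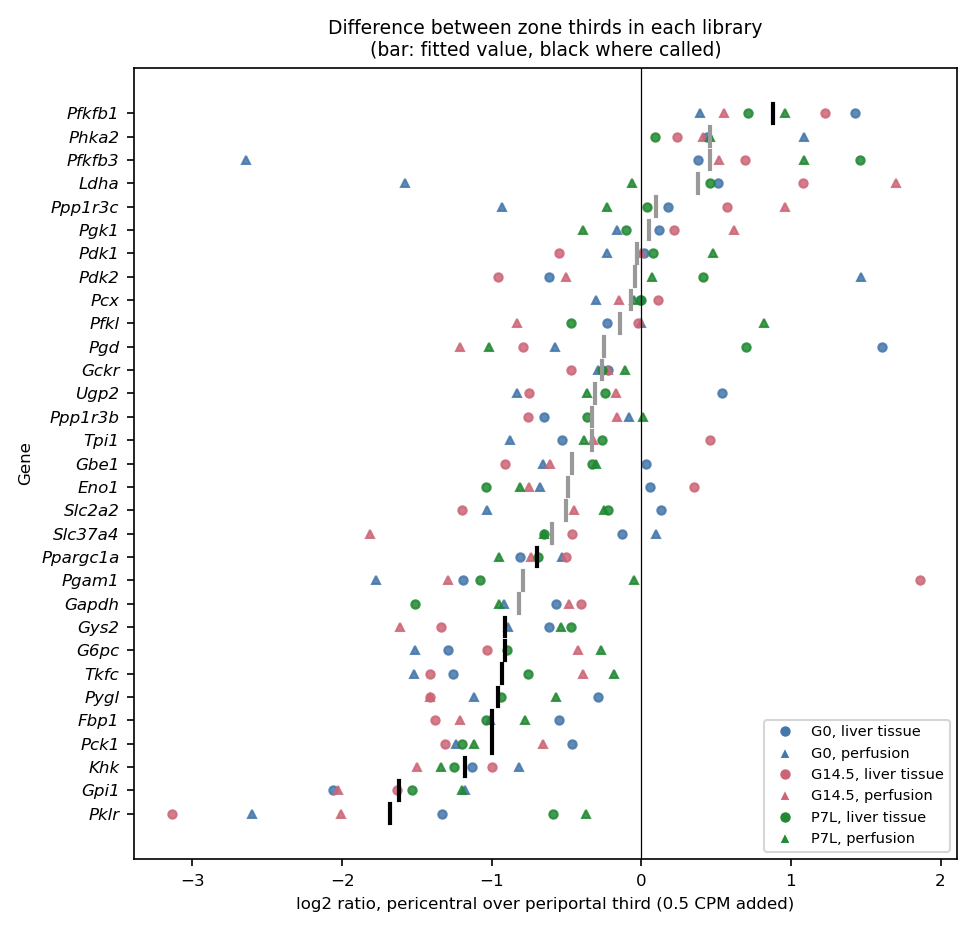
Log2 ratio of the pericentral over the periportal tercile in each library (0.5 CPM added), for each of the 31 tested genes in the order of the fitted value, which the bar marks, in black where called. All 6 points of Gpi1, Khk, Pck1 and Fbp1 lie left of 0 and all 6 points of Pfkfb1 lie right of it.

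The 6 members that fell at G14.5 against G0 were lower there in both terciles of both preparations, whereas Ldha was not higher in all of them. The terciles are parts of the libraries in which these members were called, so this describes the fall and is no separate support. For Khk, G14.5 minus G0 on the log2 scale was -1.89 and -0.91 in the periportal tercile and -1.76 and -1.59 in the pericentral tercile (liver tissue and perfusion, 1 library each, with no test). For Ugp2 it was -0.88 and -1.40, and -2.17 and -0.74, and for Slc37a4 -1.27 and -0.88, and -1.60 and -2.79. The values of Gbe1, Ppargc1a and Pfkfb3 were negative throughout as well. For Ldha the difference was 1.06 and -0.46 in the periportal and 1.62 and 2.82 in the pericentral tercile. Periportal landmarks themselves moved with stage: 7 of 13 tested fell at G14.5 against G0 and 8 of 13 rose at P7L against G14.5, the latter with a median of 1.04. Of 13 tested pericentral landmarks 3 fell at G14.5 against G0 and 2 rose at P7L against G14.5. Clock genes moved too, with 2 of 16 higher and 6 lower at G14.5 against G0 and 9 higher and 4 lower at P7L against G14.5. Of 15 tested immediate-early and heat shock genes, which respond to handling of tissue among other signals, 1 was higher and 6 lower at G14.5 against G0, and 0 were higher and 3 lower at P7L against G0. Of 20 tested genes of the fed and fasted response, 5 were higher and 4 lower at G14.5 against G0, and 4 rose and 4 fell from G14.5 to P7L. Over all genes 6.93% were higher and 5.01% lower at G14.5 against G0. The shares were 4.2% and 5.06% at P7L against G14.5, and 1.56% and 1.36% at P7L against G0. The part of any of these lists in the members' differences was not tested.

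Perfusion and liver tissue were compared over the 3 stages. No member was called by edgeR, against 0% of all genes, while 5 had an unadjusted p under 0.05, DESeq2 called 2 and limma-voom 0. The largest differences were those of Ppp1r3c (1.17 ± 0.24 on the log2 scale, higher in perfusion at each stage) and G6pc (0.90 ± 0.17), with edgeR adjusted p = 0.971 for both. Within each preparation alone, 18 members were lower and 7 higher at G14.5 than at G0 in both, and 6 differed in direction. At P7L against G14.5, 25 were higher in both and 4 lower in both. The same counts over all genes were not made. By fitted direction over both preparations, 7600 of 15015 genes were lower at G14.5 against G0. At P7L against G14.5, 7484 were higher. With 1 library for each stage and preparation, animal and preparation cannot be told apart.

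Other genes of the same pathways, 81 in a list of which 75 were tested, showed changes in both directions. At G14.5 against G0, 10 were higher and 11 lower, with a median of -0.04, against 6.93% higher and 5.01% lower over all genes. Pfkfb2, another form of the phosphofructokinase activator, fell by 2.45 ± 0.26 on the log2 scale (edgeR adjusted p = 0.00214). Among the other glycogen genes, the phosphatase subunit Ppp1r3g fell (-2.18 ± 0.37, edgeR adjusted p = 0.0128) and the kinase Gsk3b, which inhibits glycogen synthase, rose (0.59 ± 0.12, adjusted p = 0.0209).

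On the side of pyruvate entry, the mitochondrial pyruvate carrier subunit Mpc1 fell at G14.5 (-1.22 ± 0.16, edgeR adjusted p = 0.00513) and rose by 0.83 ± 0.16 from G14.5 to P7L (adjusted p = 0.0214). Mpc2, its partner, held 272.3 and 245.6 CPM in G0, 247.9 and 254.5 in G14.5 and 128 and 154.1 in P7L, and fell at P7L against both. Among sugars, Gfpt1, which starts hexosamine synthesis, rose at G14.5 by 1.54 ± 0.26 (adjusted p = 0.0125). Of the NADPH sources, Idh1 rose from 331.4 and 324 to 940.5 and 838.1 CPM in G14.5 (1.44 ± 0.12, adjusted p = 0.000787) and H6pd, the hexose-6-phosphate dehydrogenase of the endoplasmic reticulum, rose by 0.97 ± 0.16 (adjusted p = 0.0117).

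At P7L against G14.5, 7 of these 75 rose and 10 fell, against 4.2% higher and 5.06% lower over all genes. At P7L against G0 3 rose and 3 fell, against 1.56% higher and 1.36% lower over all genes. Malic enzyme Me1, another NADPH source, rose at P7L against both (0.93 ± 0.15 and 0.87 ± 0.15, edgeR adjusted p = 0.01 and 0.0317). Between zone terciles Got1, Mdh1 and Rpia were called periportal, and sorbitol dehydrogenase Sord was pericentral (0.66 ± 0.10, edgeR adjusted p = 0.00484).

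Of 23 tested regulators 2 were called at G14.5 against G0, both lower, against 11.9% of all genes called. They were Mlxipl and Srebf1, the transcription factors through which glucose and insulin raise glycolytic and lipogenic genes. Mlxipl held 692.2 and 650.8 CPM in G0, 263 and 418.9 in G14.5 and 466.3 and 587.3 in P7L (-1.02 ± 0.18, edgeR adjusted p = 0.0151), and Srebf1 held 91 and 66.4, 17.6 and 28.5, and 30.4 and 37.6 (-1.81 ± 0.30, adjusted p = 0.0122). At P7L against G14.5 again 2 of the 23 were called, against 9.26% of all genes. Klf15 rose and Hnf4a fell, by 0.62 ± 0.15 and -0.76 ± 0.13 (edgeR adjusted p = 0.0486 and 0.0137).

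Of the 7 members called at G14.5 against G0, Ugp2 remained called under all 16 alternatives, and each of the other 6 lost the call under at least 1. Without the G14.5 liver tissue library 3 were called (Ugp2, Slc37a4 and Pfkfb3), and without the G0 perfusion library 13. At P7L against G14.5, Ugp2, Khk, Slc37a4 and Ldha remained called under all 16, while leaving out 1 of the libraries of these 2 stages left 5 to 7 of the 13. Of the 11 members called between zone terciles, 7 remained called under all 11 alternatives. Ppargc1a, G6pc, Pklr and Tkfc lost that call under at least 1. Each called member kept its sign under every alternative in the comparison where it was called.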

How the data were processed

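Per the submitters' processing notes, reads were trimmed with Trimmomatic 0.39, aligned with HISAT2 2.1.0 to GRCm38 (mm10) and counted with featureCounts 1.5.3. The use of strand and the removal of nuclei are not given in the sources used here. Of the deposited tables, one gives read counts (1567 nuclei, with no molecular identifiers). The other holds TPM-like values of the authors, worked out from its values as counts divided by a length per gene and scaled to 100000 per nucleus, with 3 genes left out of the sum. The 92 spike-in rows held 0 reads and were dropped. The titles name nuclei, while the labels' protocol describes picked hepatocytes, and nuclei is used here.

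Reads were summed by library, without a search for doublets. Genes entered the test when filterByExpr (by stage) kept them and reads were seen in 5% or more of nuclei in 2 or more libraries, leaving 15015. The edgeR 4.0.16 quasi-likelihood F test (R 4.3.3, TMM, robust) modelled stage and preparation over the 6 libraries, with 2 residual degrees of freedom (prior 5.13, common coefficient of variation 0.357). The threshold was an adjusted p (Benjamini-Hochberg) of 0.05. Liver tissue is numbered replicate 1 and perfusion replicate 2, in accession order. The SE is that implied by the F statistic. The zone score used log2(CPM + 10) standardised within a library, and the fit of its outer terciles had the library as a block and 5 residual degrees of freedom. From 19 to 53 nuclei per library had a score within 0.1 of a tercile border. Thinning to 250000 reads left out 35 shallower nuclei. Near-identical copies were searched with BLAST+ 2.17.0 in GENCODE transcripts. Tkfc stands in the table as Dak, and Gk, Tigar and Adgre1 were matched likewise by older symbols.

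All members could be named. From the other pathway and regulator lists, up to 4 called genes with the smallest p per list and stage comparison could be named, of which some are shown and some are not reported here. Those named between zones were chosen after their values were seen. The members and lists were chosen with earlier results of these data known, so no list is independent evidence of its direction. The fits were also run on simulated counts, with the outcome not reported here. Alternatives were RLE factors, library size alone, other filters, no preparation term, thinned nuclei, limma-voom 3.58.1, DESeq2 1.42.0, limma on the deposited TPM-like values (pseudocount 1 or 0.1), a zone split at the median, a zone score from read shares, and each library left out.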

Additional observations from a re-analysis of the deposited data

Results flagged for a closer look

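Tkfc, the triokinase of fructose use, moved in opposite directions in the 2 preparations, which is why it is listed here. At G14.5 against G0 its log2 difference was -1.32 in liver tissue and 0.79 in perfusion. At P7L against G0 it was -1.04 in liver tissue and 1.43 in perfusion. Each value compares 1 library with 1 library, so the difference between preparations was not tested. At G0 the liver tissue library was the higher one (151.2 against 81.4 CPM), and at G14.5 and P7L the perfusion library was. Reads of Cyb561a3 and Ddb1, which lie on the other strand, cannot be told apart from those of Tkfc if strand was not used.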

How the results depend on the processing

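At G14.5 against G0, 7 members were called. The number was 11 with library size alone, 15 in thinned nuclei, 13 with DESeq2, 12 on the authors' values with a pseudocount of 0.1, and 3 to 13 with 1 library left out (3 without G14.5 liver tissue, 13 without G0 perfusion). At P7L against G0, 0 became 2 with library size alone, 1 in thinned nuclei, 6 with DESeq2 and 0 to 5 with 1 library left out: 5 higher without G0 liver tissue, 4 lower without G0 perfusion, and 1 without either G14.5 library. At P7L against G14.5, 13 became 5 to 18 with 1 library left out: 6 and 7 without the liver tissue and the perfusion library of G14.5, 5 without either P7L library, and 17 and 18 without the G0 ones. For the preparations, DESeq2 called 2 members. Zone calls numbered 9 to 12 of 31 under all alternatives run, and no member was called for zone by stage. Tkfc at G14.5 against G0 was 0.89 without G0 liver tissue (reversed) and -1.42 without G0 perfusion. At P7L against G0 it was 1.35 and -0.95 (reversed).

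Over all genes DESeq2 called 3410, 1901 and 2631 against 1793, 438 and 1390 in the same order of comparisons, and 85 against 0 for the preparations. At P7L against G0, filterByExpr alone called 92, no filter 227 and the authors' values with a pseudocount of 1 only 6. With 1 library left out the numbers ran from 653 to 1942, 37 to 669 and 421 to 2431, and for zones from 372 to 585 against 582. Library size alone moved the median of all genes to -0.13, 0.09 and 0.2 on the log2 scale. The causes of these moves were not tested. Where a stage keeps 1 library, its spread is assumed to be that of the others.

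The labels give no replicate numbers, so the replicate block stands for the preparation alone. Deviations of the same preparation from the stage means correlated by 0.03, 0.03 and 0.08 between stages. These values cannot show whether libraries share an animal or a batch. Without this replicate block the numbers of members were 8, 1, 12 and 0, and 10 for zones without the library block. Depth limits Pfkfb3, Pfkl and Pgam1, with reads in at most 29.7%, 27.4% and 23.8% of thinned nuclei in any library.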
